A study of Mus musculus with 77 samples.

Results

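The globin and erythroid genes described here are 6 mouse genes that red blood cells and their precursors express: Hba-a1, Hba-a2, Hbb-bs, Hbb-bt, Alas2 and Slc4a1. They were chosen by name, and their Ensembl identifiers were matched to symbols, which left 6 of 6 found among the 56181 genes listed over all libraries. The study collected RNA from liver, kidney, plasma, VsWAT and GAS (tissue names as the labels give them) of male mice, 12 weeks old, fed for 2 weeks either a high-fat (HFD) or a low-fat control (LFD) diet. Age and feeding time are stated for liver, plasma and kidney, and the VsWAT and GAS titles carry the same diet tags. Liver, kidney, plasma, VsWAT and GAS material was compared as pull-down RNA and as input RNA, and VsWAT and GAS also gave total RNA libraries with no pull-down. All groups, LFD included, share 1 strain: FVB.129P2-Cyp3a13tm1Ahs mice with the chromosome 5 deletion Del(5Cyp3a57-Cyp3a59)1Ahs and the transgene Tg(APOE-CYP3A4)A1Ahs, a human CYP3A4 gene driven by an APOE promoter. The tagging behind the pull-down is named only in the series title, as iTag labelling, and the labels used here give no further protocol for it.

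The HFD pull-down groups held 3 libraries each for liver mRNA, kidney mRNA, liver small RNA, VsWAT small RNA and GAS small RNA, and 2 for plasma small RNA. The LFD pull-down groups held 3 libraries for liver mRNA, VsWAT small RNA and GAS small RNA, and 2 for kidney mRNA, liver small RNA and plasma small RNA. The HFD inputs matched the HFD pull-downs in number, and the LFD inputs held 3 libraries for liver mRNA, liver small RNA, VsWAT small RNA and GAS small RNA and 2 for kidney mRNA and plasma small RNA. The total RNA libraries numbered 3 per diet in VsWAT and in GAS. That made 77 libraries in 28 groups. Plasma was passed through a spin filter before extraction. The labels do not say whether the libraries of a group came from separate animals, so the p-values below measure the spread between these libraries, which may be technical.

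Levels are given as counts per 1000000 assigned counts (CPM), and depth differed widely between materials. Plasma pull-downs held 221875 to 646964 assigned counts and plasma inputs 327144 to 828030, whereas the other pull-downs held 573697 to 13713002 and the other inputs 849006 to 19645443. Log2 fold changes are from edgeR's quasi-likelihood test with TMM scaling unless total-count scaling is named, errors on them are standard errors, and a gene was called at a Benjamini-Hochberg adjusted p below 0.05 over all genes tested. Defining markers of the labelled tissues were present: the 11 hepatocyte genes summed to 65776 to 100108 CPM in liver mRNA inputs, the 10 kidney tubule genes to 68701 to 85653 CPM in kidney inputs, the 10 adipocyte genes to 10473 to 12631 CPM in VsWAT small RNA inputs, and the 12 skeletal muscle genes to 35695 to 62586 CPM in GAS small RNA inputs. The library labelled liver mRNA input LFD 1 stood apart from its replicates, at 55.0 and 51.7 in chi-square per degree of freedom from LFD 2 and LFD 3, which differed from each other by 1.12. Its kidney tubule markers summed to 191 CPM, against 11.5 to 53.1 CPM in the other 5 liver mRNA inputs. Kidney input HFD 1 likewise differed from HFD 2 and HFD 3 by 81.9 and 83.1. Results that rest on either library are given with and without it.

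Haemoglobin is a tetramer of alpha-globin and beta-globin chains, each holding a heme group. The alpha chains come from the Hba-a1 and Hba-a2 genes and the adult beta chains from Hbb-bs and Hbb-bt. Alas2 encodes the erythroid form of 5-aminolevulinate synthase, which starts heme synthesis, and Slc4a1 encodes band 3, the anion exchanger of the red cell membrane, which acid-secreting intercalated cells of the kidney collecting duct also make. Mature mouse red cells have no nucleus, while reticulocytes still hold RNA, much of it globin mRNA, so globin transcripts in a solid tissue are commonly read as blood left in the vessels. In bulk samples, fewer red cells and less RNA per cell cannot be told apart.

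The promoter sequences of these genes are shown because the globins moved together in most comparisons and because the near-identity of the alpha pair bears on how their reads were counted. The table used gives 250 bases before to 50 after each start, from RefSeq on GRCm38.p6, and 5 of the 6 genes had an entry. Each line holds the 110 bases before the start, 5′ to 3′ on the gene's own strand. Capitals mark the CCAAT box (CCAAT), the CACCC box (CACCC), the TATA element ATATAA, the GATA motif AGATAA and its variant TGATAA, each on either strand. The windows lie at chr11:32283562-32283671 (+) for Hba-a1, chr11:32296382-32296491 (+) for Hba-a2, chr7:103827929-103828038 (−) for Hbb-bs, chr7:103813924-103814033 (−) for Hbb-bt and chrX:150547307-150547416 (+) for Alas2.
Hba-a1: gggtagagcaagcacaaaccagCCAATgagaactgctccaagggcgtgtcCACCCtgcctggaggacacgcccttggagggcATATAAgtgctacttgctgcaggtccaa
Hba-a2: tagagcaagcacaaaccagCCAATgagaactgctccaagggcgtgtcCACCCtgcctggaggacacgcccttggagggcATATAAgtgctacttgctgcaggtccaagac
Hbb-bs: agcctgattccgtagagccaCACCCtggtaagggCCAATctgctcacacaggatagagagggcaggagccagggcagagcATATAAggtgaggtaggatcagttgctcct
Hbb-bt: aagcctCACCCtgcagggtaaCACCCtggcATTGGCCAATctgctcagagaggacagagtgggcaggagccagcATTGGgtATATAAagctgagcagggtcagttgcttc
Alas2: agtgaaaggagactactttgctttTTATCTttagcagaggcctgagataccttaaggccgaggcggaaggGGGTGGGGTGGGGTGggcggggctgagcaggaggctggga

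The 4 globin windows each held the CCAAT box, the CACCC box and the TATA element on at least 1 strand, while the Alas2 window held the CACCC box and the GATA motif AGATAA. Searched in the same way on both strands in the 110 bases before 32851 mouse gene starts, the CCAAT box was present in 20.2%, the CACCC box in 29.6%, the TATA element in 4.09%, AGATAA in 3.99% and TGATAA in 3.03%. In Hbb-bt 2 CCAAT boxes on opposite strands lie directly side by side without sharing a base. The Hba-a1 and Hba-a2 windows were identical at 107 of 113 aligned positions (94.7%). The 107 form 1 unbroken run, and the other positions are overhanging ends, since the windows are offset against each other. The 300-base entries of Hba-a1 and Hba-a2 share an unbroken identical run of 297 bases. The Hbb-bs and Hbb-bt windows were identical at 85 of 114 aligned positions (74.6%). These matches are a description of the letters, not of sites bound by a factor.

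Hba-a1 (ENSMUSG00000069919) spans 11:32283672-32284486 on GRCm38.p6 and Hba-a2 (ENSMUSG00000069917) spans 11:32296492-32297310. Hba-a2 had 20 counts over all 77 libraries, against 38984 for Hba-a1. Only 11 libraries had any Hba-a2 count, the highest being 5, so it did not pass the low-count filter in any comparison, and tests below leave it out. The summary lines of the 12 total RNA files place 11.8 to 21.3% of reads as not uniquely aligned, and whether alpha-globin reads that match both copies were set aside before counting was not tested. Values of Hba-a1 below therefore stand for whatever share of alpha-globin reads the counting gave to it. Hbb-bs (ENSMUSG00000052305) spans 7:103826523-103827928 and Hbb-bt (ENSMUSG00000073940) spans 7:103812524-103813923, and their similar sequences leave the split between them uncertain in the same way. Alas2 (ENSMUSG00000025270) spans X:150547417-150570622 and Slc4a1 (ENSMUSG00000006574) spans 11:102348820-102365281.

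Plasma carried far more of these transcripts than any solid tissue. The 4 globins together came to 38384 and 24085 CPM in the HFD plasma inputs and to 22679 and 18294 CPM in the LFD plasma inputs. Among the solid tissues, the small RNA inputs ran over 423 to 1274 CPM in VsWAT, 52.1 to 442 CPM in liver and 80.5 to 205 CPM in GAS. The mRNA inputs ran over 675 to 1781 CPM in kidney and 307 to 1733 CPM in liver, and total RNA over 461 to 898 CPM in VsWAT and 61.8 to 323 CPM in GAS. No tissue library reached the lowest plasma library, which was a pull-down at 11132 CPM. Levels of the 3 RNA types are set side by side only, since mRNA, small RNA and total RNA libraries were not tested against each other.

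**Figure D1:**
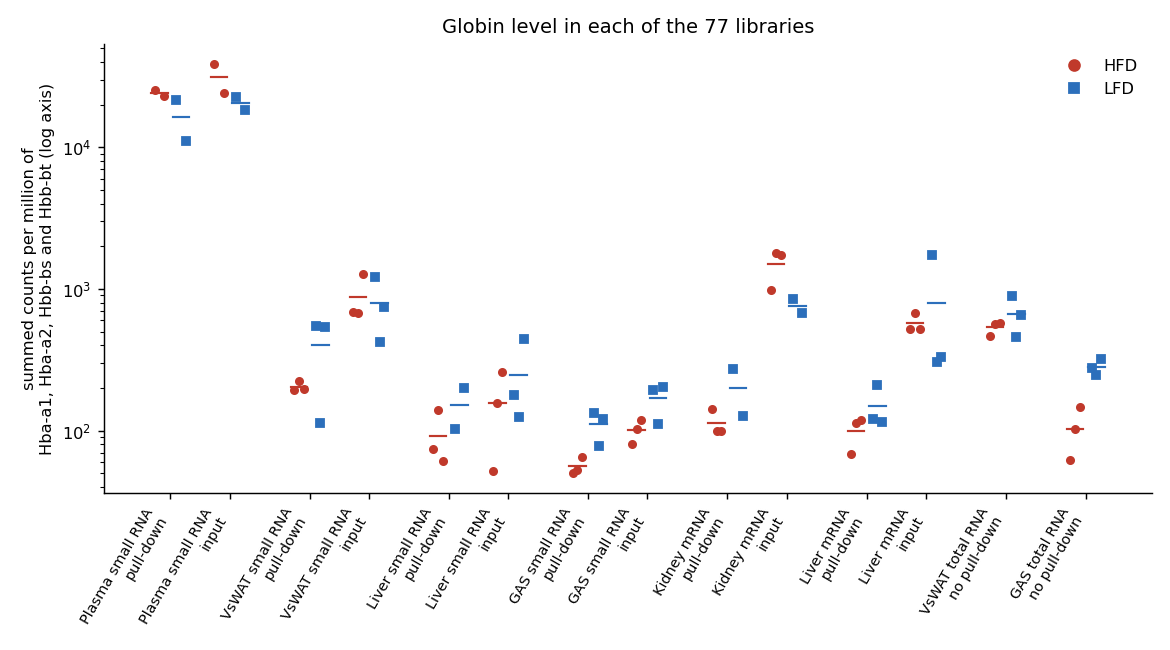
Summed CPM of the 4 globin genes in each library on a log axis, by tissue and RNA type, with pull-down beside input or total RNA and the diets marked. The 8 plasma libraries lie between 11132 and 38384 CPM and every tissue library lies at or below 1781 CPM.

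Hbb-bs, one of the adult beta-globins, was the most counted member in plasma. It had 31316 and 17450 CPM in HFD plasma inputs and 18592 and 14855 CPM in LFD plasma inputs. Its levels in the other small RNA inputs were 511 ± 218 CPM in VsWAT, 116 ± 77.2 CPM in liver and 85.1 ± 30.6 CPM in GAS (SD, n = 6 each). Every plasma input was above every tissue input. On the log2 scale Hbb-bs was higher in plasma by 6.96 ± 0.59 against VsWAT (adjusted p = 1.61e-10), by 8.28 ± 0.62 against liver (adjusted p = 9.32e-12) and by 8.77 ± 0.63 against GAS (adjusted p = 7.44e-12). These edgeR values are under TMM, and total-count scaling gave 5.31, 7.49 and 7.94.

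Alas2 showed the widest gap between plasma and tissue, among the members for which a fold is given, against VsWAT, liver and GAS alike. It had 4827 and 2390 CPM in HFD plasma inputs and 2914 and 2287 CPM in LFD plasma inputs, a mean of 3104 ± 1181 CPM (SD, n = 4). The mean was 24.0 ± 8.28 CPM in VsWAT, 6.0 ± 2.2 CPM in liver and 4.77 ± 3.70 CPM in GAS small RNA inputs (SD, n = 6 each). The groups did not overlap. The log2 difference was 8.67 ± 0.55 against VsWAT (adjusted p = 3.49e-13), 9.89 ± 0.59 against liver (adjusted p = 1.03e-13) and 10.24 ± 0.61 against GAS (adjusted p = 9.70e-14). Liver and GAS inputs held at most 13 Alas2 counts per library, so the size of those gaps rests on few reads.

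Hba-a1 averaged 4567 ± 1638 CPM in plasma inputs (n = 4), against 158 ± 45.3 CPM in VsWAT, 38.1 ± 21.6 CPM in liver and 22.6 ± 10.9 CPM in GAS small RNA inputs (SD, n = 6 each). Its log2 differences were 6.46 ± 0.52, 7.71 ± 0.55 and 8.50 ± 0.57, in the order VsWAT, liver, GAS. Hbb-bt, the other adult beta-globin, averaged 736 ± 175 CPM in plasma inputs, against 170 ± 78.7 CPM in VsWAT, 48.8 ± 37.1 CPM in liver and 27.6 ± 10.9 CPM in GAS inputs. Its differences of 3.76 ± 0.48, 4.76 ± 0.50 and 5.62 ± 0.52 were the smallest among the members in all 3 comparisons. Slc4a1 had 174 and 129 CPM in HFD plasma inputs and 259 and 198 CPM in LFD plasma inputs, against 1.85 ± 1.16 CPM in VsWAT inputs. In GAS inputs it averaged 2.04 ± 3.28 CPM. It was higher in plasma by 8.16 ± 0.48 against VsWAT and by 7.49 ± 0.50 against GAS. Slc4a1 had 16 counts over the 6 VsWAT inputs and 15 over the 6 GAS inputs, so the size of these gaps rests on few reads. In liver inputs it had at most 1 count per library, so no fold is given there, although the difference was called (adjusted p = 3.89e-11).

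All 5 tested members were called higher in plasma in each of these 3 comparisons. Of all genes tested, 11.7% were called higher in plasma than in VsWAT, 21.4% than in liver and 11.0% than in GAS. The calls held when any of the 22 small RNA inputs was left out and under total-count scaling. The median of all genes lay at −0.52, −0.26 and −0.41 under TMM and at −2.06, −1.01 and −1.16 under total counts, and the members stood above it on either scale.

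Among the solid tissues, VsWAT held more of these transcripts than liver or GAS. Against liver small RNA inputs, VsWAT inputs were higher for Hba-a1 by 1.25 ± 0.42 (adjusted p = 0.0125), for Hbb-bs by 1.32 ± 0.46 (adjusted p = 0.0145), for Alas2 by 1.21 ± 0.49 (adjusted p = 0.0339) and for Hbb-bt by 1.00 ± 0.43 (adjusted p = 0.0494). These are 4 of 5 tested members, and 32.1% of all genes tested were called higher in VsWAT. The Hbb-bt call held in only 5 of the 22 fits that left out 1 library, the Alas2 call in 16 and the Hbb-bs call in 21. DESeq2 called 2 members. Total-count scaling gave larger differences, from 1.85 for Hbb-bt to 2.18 for Hbb-bs, but the median of all genes rose too, from 0.16 under TMM to 0.94.

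Against GAS, VsWAT was higher for the same 4 genes in both RNA types measured. In small RNA inputs the log2 differences were 2.04 ± 0.44 for Hba-a1, 1.81 ± 0.47 for Hbb-bs, 1.86 ± 0.45 for Hbb-bt and 1.57 ± 0.51 for Alas2, with adjusted p between 0.000436 and 0.0161. Of all genes tested there, 21.4% were called higher in VsWAT. In total RNA the differences were 1.66 ± 0.20, 1.22 ± 0.27, 1.17 ± 0.25 and 1.88 ± 0.40, with adjusted p between 9.96e-06 and 0.00149, and 30.0% of all genes were called higher. Between liver and GAS small RNA inputs no member was called (0 of 5, with 56.5% of all genes called in either direction), and 0 of the 5 had an unadjusted p under 0.05 or were called by DESeq2. Some members were called there with no filter on low counts and in some fits that left out a library. Hba-a1 differed there by 0.79, with a 95% interval from −0.07 to 1.66.

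Kidney and liver mRNA inputs differed in Alas2 and Slc4a1, in opposite directions. Alas2 had 0.786, 0.217 and 0.204 CPM in HFD kidney inputs and 1.76 and 6.51 CPM in LFD kidney inputs, against 12.6, 5.59 and 18.6 CPM in HFD liver inputs and 0.989, 27.3 and 30.7 CPM in LFD liver inputs. All kidney values but 1.76 and 6.51 CPM lay below every liver value. It was lower in kidney by a log2 of −4.02 ± 0.68 (adjusted p = 0.000289). Slc4a1 ran over 11.3 to 17.8 CPM in kidney inputs, whereas liver mRNA inputs held at most 1 count of it per library (adjusted p = 2.09e-07). Together 2 of 5 members were called, with 60.6% of all genes called in either direction.

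The 3 globins did not pass the test between kidney and liver, and this rested on liver input LFD 1. With all libraries Hba-a1 differed by −0.01 ± 0.42, Hbb-bs by 0.23 ± 0.47 and Hbb-bt by 0.14 ± 0.51. Without that library the differences were 0.71, 1.02 and 0.98, and all 5 tested members were called. The share of all genes called in that fit was not compared. It keeps LFD 2 and LFD 3, which differ from each other by little more than counting noise. Liver input LFD 1 had 1158 CPM of Hbb-bs, against 203 and 214 CPM in LFD 2 and LFD 3. Its excess of kidney tubule markers was small beside the kidney inputs, which summed to at least 68701 CPM, and its part in the globin level was not tested.

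Pull-down RNA held less globin than input RNA in each solid tissue. In liver mRNA, Hbb-bs had 42.9, 65.5 and 79.3 CPM in HFD pull-downs and 78.8, 142 and 70.2 CPM in LFD pull-downs, against 345, 446 and 347 CPM in HFD inputs and 1158, 203 and 214 CPM in LFD inputs. No pull-down reached the lowest input. Hbb-bs was lower by a log2 of −2.84 ± 0.51 (adjusted p = 0.000571), or 7.16-fold, Hba-a1 by −2.63 ± 0.48 (adjusted p = 0.000573) and Hbb-bt by −2.66 ± 0.55 (adjusted p = 0.00132). Alas2 was lower by −1.63 ± 0.51 (adjusted p = 0.0143), although its lowest input, LFD 1 at 0.989 CPM, lay below all pull-downs. All 4 tested members were called lower, and 35.9% of all genes were. The calls held without any 1 of the 12 libraries, LFD 1 included, where the globin differences were −1.93, −2.07 and −1.85. With no filter on low counts Alas2 was not called (adjusted p = 0.0652). DESeq2 called Hbb-bt and Alas2 and gave no adjusted p for the other two.

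In kidney mRNA the beta-globins showed the largest fall of the solid tissues. Hbb-bs had 76.6, 60.1 and 59.3 CPM in HFD pull-downs and 157 and 71.7 CPM in LFD pull-downs, against 649, 1225 and 1221 CPM in HFD inputs and 614 and 449 CPM in LFD inputs. The groups were well apart. Hbb-bs was lower by −3.34 ± 0.27 (adjusted p = 1.07e-05) and Hbb-bt by −3.40 ± 0.27 (adjusted p = 8.69e-06), or 10.1-fold and 10.6-fold. Hba-a1 was lower by −2.16 ± 0.25 (adjusted p = 3.40e-05), or 4.47-fold.

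Slc4a1, which the kidney itself expresses, was lower in kidney pull-down by less than the globins. It had 8.13, 3.21 and 5.27 CPM in HFD pull-downs and 9.69 and 9.33 CPM in LFD pull-downs, against 16, 16.2 and 14.6 CPM in HFD inputs and 11.3 and 17.8 CPM in LFD inputs. The difference was −1.27 ± 0.23 (adjusted p = 0.000607). Beside it, 8 of 10 kidney tubule markers were lower in pull-down, with a median of −1.07 against 0.01 for all genes. Alas2 did not pass, at 0.78 ± 0.51 (adjusted p = 0.207, 95% interval −0.21 to 1.77). In all, 4 of 5 kidney members were called lower, where 26.3% of all genes were, and the calls held without any 1 library.

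In liver small RNA the same direction was called but depended on the scaling and on the low-count filter. Hbb-bs had 47.0, 75.5 and 40.1 CPM in HFD pull-downs and 74.9 and 138 CPM in LFD pull-downs, against 31.7, 85.9 and 150 CPM in HFD inputs and 109, 67.3 and 251 CPM in LFD inputs. The groups overlapped. Under TMM, Hba-a1 was lower by −1.90 ± 0.56 (adjusted p = 0.0145), Hbb-bs by −1.73 ± 0.52 (adjusted p = 0.0157) and Hbb-bt by −2.43 ± 0.60 (adjusted p = 0.0054), with 3 of 3 called and 28.2% of all genes called lower. Under total counts the differences were −0.77, −0.55 and −1.26, and only Hbb-bt was called (adjusted p = 0.0467). With no filter on low counts none of the 3 globins was called (adjusted p = 0.133, 0.139 and 0.0632), while Alas2, which the filter leaves out, was (−1.46, adjusted p = 0.00357). Without liver small RNA pull-down LFD 1 the adjusted p was 0.0918 for Hba-a1 and 0.0947 for Hbb-bs, and without input HFD 3 it was 0.0509 for Hba-a1.

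In VsWAT small RNA, Hbb-bs had 143, 130 and 151 CPM in HFD pull-downs and 370, 72.6 and 319 CPM in LFD pull-downs, against 423, 412 and 823 CPM in HFD inputs and 725, 244 and 440 CPM in LFD inputs. Only LFD pull-downs 1 and 3 exceeded the lowest input. The differences were −2.64 ± 0.46 for Hba-a1 (adjusted p = 0.00138), −2.06 ± 0.46 for Hbb-bs (adjusted p = 0.00525) and −2.18 ± 0.51 for Hbb-bt (adjusted p = 0.00776), and they held without any 1 library and under total counts. Alas2 was called lower too, by −0.75 ± 0.25 (adjusted p = 0.0227), but its mean was 21.9 ± 5.86 CPM in pull-downs and 24.0 ± 8.28 CPM in inputs (SD, n = 6 each). Total-count scaling gave −0.10 for it (adjusted p = 0.732), and the call was lost in 4 of the 12 fits that left out 1 library, with adjusted p up to 0.0938. All 4 tested members were called lower, against 22.9% of all genes.

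In GAS small RNA, the 3 globins were lower in pull-down, Hba-a1 by the most. It had 1.36, 7.57 and 4.83 CPM in HFD pull-downs and 6.05, 3.10 and 4.87 CPM in LFD pull-downs, against 12.4, 17.1 and 23.6 CPM in HFD inputs and 29.4, 12.7 and 40.4 CPM in LFD inputs. The groups did not overlap, though these levels are 3 to 15 counts per pull-down library. Hba-a1 was lower by −3.12 ± 0.36 (adjusted p = 5.33e-07), or 8.69-fold, Hbb-bs by −1.48 ± 0.20 (adjusted p = 4.92e-06) and Hbb-bt by −1.45 ± 0.22 (adjusted p = 1.28e-05). All 3 were also called under total counts, by −2.23, −0.56 and −0.55. Alas2 did not pass under TMM, at 0.39 ± 0.50, and was called higher under total counts, at 1.28 (adjusted p = 0.0228). So 3 of 4 were called lower, against 26.4% of all genes.

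In plasma, Hba-a1 and Alas2 were called lower in pull-down, and the CPM of both Alas2 and Hbb-bs overlapped between the fractions. Hba-a1 had 1025 and 1235 CPM in HFD pull-downs and 557 and 1140 CPM in LFD pull-downs, against 6181 and 5747 CPM in HFD inputs and 3448 and 2893 CPM in LFD inputs. Its groups did not overlap. Alas2 ran over 821 to 2711 CPM in pull-downs and 2287 to 4827 CPM in inputs, which overlapped. Hba-a1 was lower by −4.19 ± 0.70 (adjusted p = 0.00281) and Alas2 by −3.22 ± 0.71 (adjusted p = 0.0327). Hbb-bs had 23915 and 20784 CPM in HFD pull-downs and 20679 and 9154 CPM in LFD pull-downs, against 31316 and 17450 CPM in HFD inputs and 18592 and 14855 CPM in LFD inputs. Those groups overlapped, and Hbb-bs did not pass, at −2.15 ± 0.56 (adjusted p = 0.0731), nor did Hbb-bt, at −2.34 ± 0.78 (adjusted p = 0.15), or Slc4a1, at −1.03 ± 0.92 (adjusted p = 0.592).

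The plasma calls were not stable. Under TMM, 2 of 5 members were called lower, against 0.634% of all genes, and under total counts none was: Hba-a1 stood at −2.15 (adjusted p = 0.0587), Alas2 at −1.25, Hbb-bs at −0.15 and Slc4a1 at 0.98. DESeq2 also called 2, and 4 members had an unadjusted p under 0.05. The shares of all genes for these 2 counts were not compared. Without pull-down LFD 2 no member was called, Hba-a1 and Alas2 both having an adjusted p of 0.143, and without pull-down LFD 1 Alas2 was at 0.0712. Without any 1 input, 3 members were called, Hbb-bs being the third. Beside this, hepatocyte markers summed to 12565 and 226 CPM in HFD and 1028 and 3813 CPM in LFD plasma pull-downs, against 125 and 66.4 CPM in HFD and 53.8 and 18.0 CPM in LFD inputs. Skeletal muscle markers summed to 2327 to 6008 CPM in the pull-downs, against 566 to 2260 CPM in the inputs. Their part in the member differences was not tested.

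Total-count scaling moved the median of all genes in every pull-down comparison. Pull-down over input, that median was 0.02 in liver mRNA, 0.01 in kidney mRNA, 0.10 in liver small RNA, 0.01 in VsWAT, 0.06 in GAS and 0.04 in plasma under TMM. Under total counts it was 0.27, 0.23, 1.22, 0.64, 0.96 and 1.97 in the same order. The share of calls that were higher in pull-down went with it: 51.2% under TMM and 60.3% under total counts in liver mRNA, 50.3% and 63.6% in kidney mRNA, 48.8% and 89.0% in liver small RNA, 47.7% and 82.5% in VsWAT, 51.4% and 83.4% in GAS, and 33.3% and 90.0% in plasma. The globin differences of the 5 solid tissue sets were negative on both scales.

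**Figure D2:**
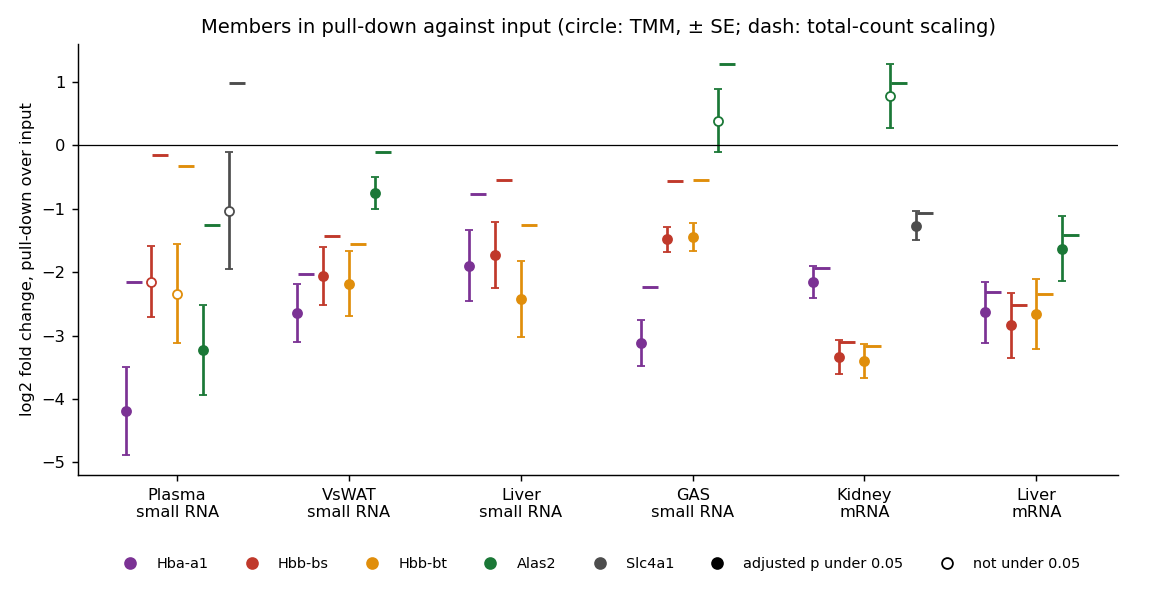
Log2 fold change of pull-down over input for each tested member in the 6 material sets, with standard errors, under TMM and under total-count scaling. The globins lie below 0 in all sets, and in plasma only Hba-a1 and Alas2 were called, under TMM alone.

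Endothelial markers, and platelet genes in part, moved with the globins in pull-down, but not all marker lists did. Of the endothelial markers that passed the filter, 9 of 9 were lower in liver mRNA pull-down, 9 of 10 in kidney, 7 of 8 in liver small RNA, 10 of 10 in VsWAT, 6 of 7 in GAS and 0 of 3 in plasma. Their medians ran from −2.09 in liver mRNA to −1.13 in GAS. Platelet genes were lower in 3 of 3, 4 of 9, 2 of 2, 3 of 4, 1 of 2 and 0 of 4. Of all genes tested, 35.9%, 26.3%, 28.2%, 22.9%, 26.4% and 0.634% were called lower, in the same order. Adipocyte markers rose in VsWAT small RNA, from a median sum of 11848 CPM in inputs to 23564 CPM in pull-downs. Hepatocyte markers fell in liver mRNA, from 84681 to 44569 CPM, but not in liver small RNA, at 50641 CPM in inputs and 52325 CPM in pull-downs. Kidney tubule markers fell in kidney mRNA, from 72742 to 20983 CPM. Skeletal muscle markers in GAS small RNA were at 54655 CPM in inputs and 61286 CPM in pull-downs. These sums are plain CPM, whereas the calls above are under TMM. The part of these lists in the globin differences was not tested.

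The proportions among the members also differed between pull-down and input, in opposite directions in kidney and plasma. For every 100 counts of Hbb-bs, Hba-a1 had 65.4, 42.7 and 47.0 in HFD and 58.3 and 56.4 in LFD kidney pull-downs, against 31.0, 24.6 and 20.7 in HFD and 18.1 and 33.7 in LFD kidney inputs. All kidney pull-downs lay above all kidney inputs. In plasma the same ratio was 4.29 and 5.94 in HFD and 2.69 and 12.5 in LFD pull-downs, against 19.7 and 32.9 in HFD and 18.5 and 19.5 in LFD inputs. All plasma pull-downs lay below all plasma inputs. In GAS small RNA it was 3.66 to 22.1 in pull-downs and 16.2 to 33.1 in inputs, which overlapped. Liver mRNA overlapped too, at 27.4 to 41.9 in pull-downs and 19.1 to 38.1 in inputs. So did VsWAT small RNA, at 11.7 to 32.6 and 25.8 to 37.2, and liver small RNA, at 14.6 to 56.3 and 30.0 to 43.6. As in plasma, mean ratios were lower in pull-down in VsWAT (21.2 against 32.4), liver small RNA (29.2 against 34.5) and GAS (8.95 against 26.1). A ratio within a library does not depend on the scaling, and no test was made on it.

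Alas2 per 100 Hbb-bs counts had the same directions in kidney and plasma. It was 2.22 to 3.95 in kidney pull-downs, against 0.0167 to 1.45 in kidney inputs, and 3.97 to 13.0 in plasma pull-downs, against 13.7 to 15.7 in plasma inputs. Neither pair of ranges overlapped. Liver mRNA overlapped, at 4.05 to 13.7 in pull-downs against 0.0854 to 14.4 in inputs, with means of 8.51 and 6.36. The other small RNA sets overlapped, at 7.06 to 27.7 in VsWAT pull-downs against 2.96 to 8.05 in inputs, 8.02 to 35.4 in GAS pull-downs against 0 to 12.5 in inputs, and 3.66 to 8.92 in liver pull-downs against 3.64 to 21.4 in inputs. Mean ratios were thus higher in pull-down in VsWAT (14.2 against 5.15) and GAS (21.1 against 5.69), unlike plasma. The share of Hbb-bs in the sum of Hbb-bs and Hbb-bt set plasma apart from tissue in both fractions. It was 91.6 to 98.5% in plasma pull-downs and 95.2 to 97.3% in plasma inputs, whereas the tissue libraries ran over 66.0 to 88.7%.

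**Figure D3:**
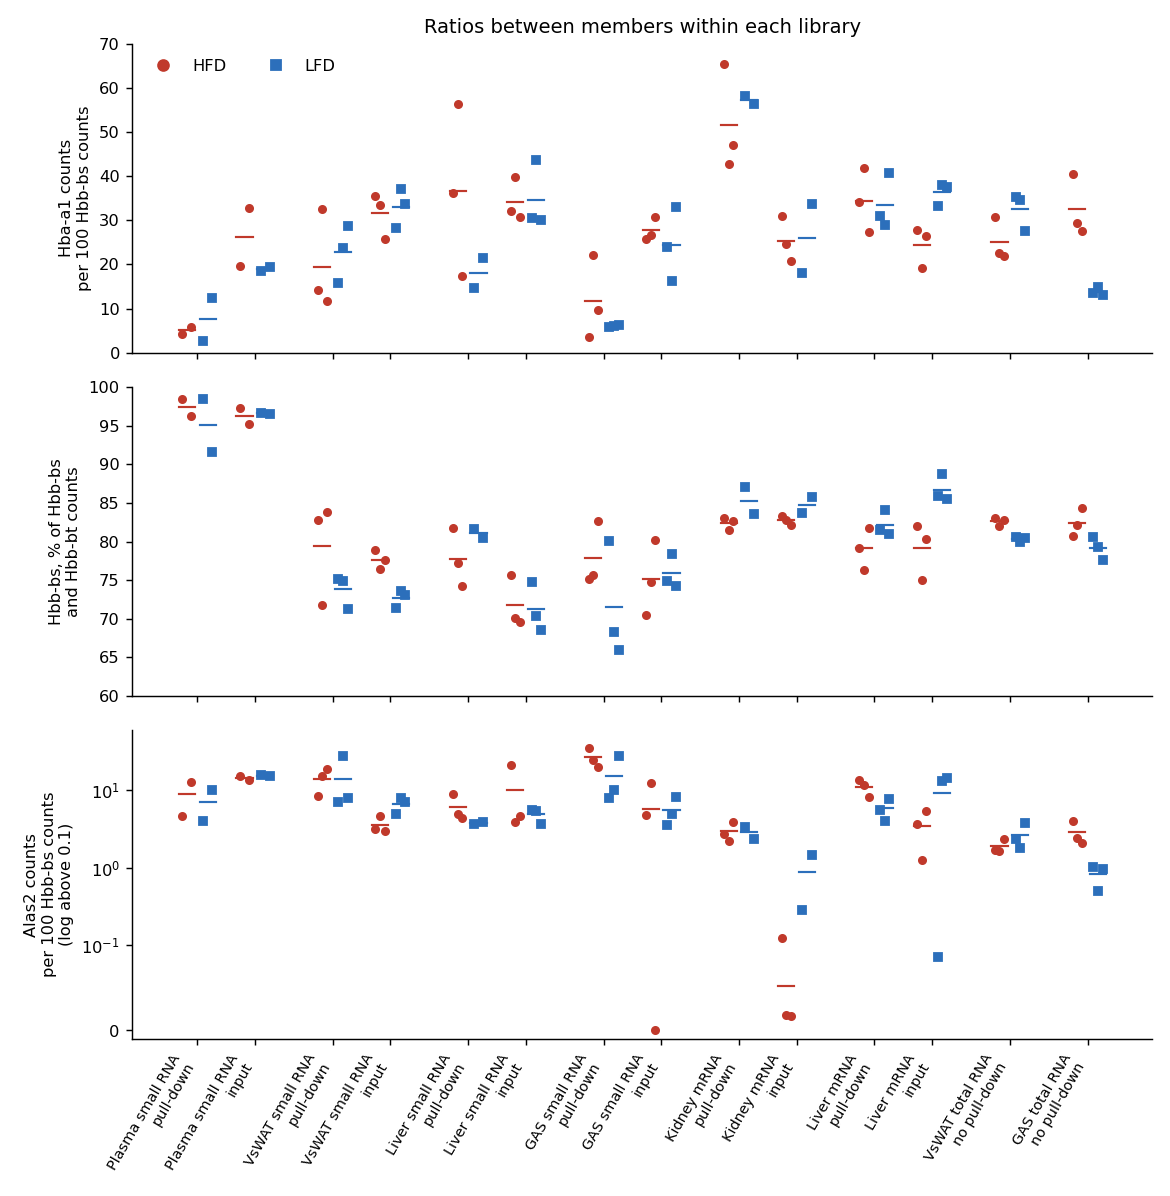
Hba-a1 counts per 100 Hbb-bs counts and Alas2 counts per 100 Hbb-bs counts in each library, pull-down beside input. Kidney pull-downs lie above kidney inputs and plasma pull-downs below plasma inputs in both ratios.

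The diet comparison asked whether globin content differed after HFD. Over the 14 HFD against LFD comparisons, 57 member tests gave 2 calls, with 13 at an unadjusted p under 0.05 and 3 calls by DESeq2. The shares of all genes at that unadjusted p, or called by DESeq2, were not compared. The 2 calls were Hba-a1 in liver mRNA pull-down and Hbb-bt in GAS total RNA. Both were lower in HFD.

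In GAS total RNA, Hbb-bt had 9.02, 14.8 and 18.5 CPM in HFD libraries, against 48.4, 45.7 and 65.8 CPM in LFD libraries. Each HFD value lay below each LFD value. It was lower by −1.56 ± 0.27 (adjusted p = 0.0378), or 2.95-fold, and 1 of 4 members was called, against 0.910% of all genes. The call was lost whichever of the 6 libraries was left out, with differences from −1.72 to −1.32 and adjusted p up to 0.276. Hbb-bs had 37.6, 67.9 and 99.8 CPM in HFD libraries, against 201, 175 and 227 CPM in LFD libraries, and did not pass under TMM, at −1.20 ± 0.31 (adjusted p = 0.117). It did under total counts, at −1.56 (adjusted p = 0.0358). Hba-a1 had 15.2, 20 and 27.6 CPM in HFD libraries, against 27.2, 26.1 and 29.9 CPM in LFD libraries, at −0.04 ± 0.22. Per 100 Hbb-bs counts, Hba-a1 was thus 40.5, 29.5 and 27.7 in HFD and 13.5, 14.9 and 13.1 in LFD libraries, which did not overlap.

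Other tissue markers moved in the same GAS libraries. Adipocyte markers summed to 844, 1034 and 1038 CPM in HFD libraries, against 1882, 2282 and 1962 CPM in LFD libraries, and 7 of the 10 were called lower. Hepatocyte markers summed to 22.6, 9.95 and 12.1 CPM in HFD libraries, against 42.3, 54.9 and 42.3 CPM in LFD libraries. Skeletal muscle markers summed to 134626, 148588 and 142798 CPM in HFD libraries, against 92261, 118060 and 110870 CPM in LFD libraries. Gm42418, a gene annotated over a ribosomal RNA repeat, took 6.15% of counts in HFD 1, and without that library Hbb-bt was at −1.32 (adjusted p = 0.102). The part of these differences in the globin values was not tested.

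In liver mRNA pull-down, Hba-a1 had 14.7, 27.4 and 21.7 CPM in HFD libraries, against 24.4, 41.0 and 28.6 CPM in LFD libraries. The groups overlapped. It was lower by −0.71 ± 0.24 (adjusted p = 0.0489), the 1 call among 4 members, where 15.6% of all genes were called in either direction. The call held in 2 of the 6 fits that left out 1 library, and it was lost under total counts (adjusted p = 0.0804), with a dispersion taken from all 4 liver mRNA groups and with DESeq2.

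In liver mRNA input no member was called (0 of 4, with 13.0% of all genes called in either direction and 0 members at an unadjusted p under 0.05), and LFD 1 decided the direction. With it, Hba-a1 differed by −1.06 ± 0.69, Hbb-bs by −0.54 ± 0.74 and Hbb-bt by 0.23 ± 0.80. Without it, Hba-a1 was higher in HFD by 0.34 (adjusted p = 0.00538), Hbb-bs by 1.00 (adjusted p = 1.81e-05) and Hbb-bt by 1.87 (adjusted p = 0.0439). That fit compares 3 HFD libraries with LFD 2 and LFD 3, which differ from each other by little more than counting noise. The share of all genes called in it was not compared.

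In kidney mRNA input no member passed the test, although the 3 globins and Alas2 did not overlap between the diets. The share of all genes that separate so few libraries in this way was not counted. Hbb-bs had 649, 1225 and 1221 CPM in HFD inputs, against 614 and 449 CPM in LFD inputs. Alas2 had 0.786, 0.217 and 0.204 CPM in HFD inputs, against 1.76 and 6.51 CPM in LFD inputs, which are 10, 3 and 4 counts against 14 and 91. Neither gene's groups overlapped. The differences were 1.05 ± 0.25 for Hba-a1, 1.04 ± 0.35 for Hbb-bs, 1.23 ± 0.40 for Hbb-bt and −3.31 ± 0.71 for Alas2, each with an adjusted p of 0.351. No gene of the 14273 tested was called (0%). Of the 5 members, 4 had an unadjusted p under 0.05, and DESeq2 called Hba-a1. The share of all genes at an unadjusted p under 0.05 was not compared, so that count cannot be set against the 0%. Without input HFD 1, 4 members were called, at 1.17, 1.27, 1.48 and −4.19 with adjusted p between 0.0293 and 0.0395. HFD 1 and LFD 1 also held 16.6% and 17.6% of counts on mitochondrial mRNA, against 11.6 to 12.0% in the other 3, and without both of them 4 members were called. The LFD side is then 1 library, which is assumed to vary like the other group. The share of all genes called was not compared for either reduced fit, so their calls cannot be set against the 0% of the full fit.

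In kidney pull-down the 3 globins pointed the other way, with Hbb-bs at −0.81 ± 0.26 and Hba-a1 at −0.94 ± 0.32, and none was called (0 of 5, with 0% of all genes). Both had an unadjusted p under 0.05. The other diet comparisons called 0 members as well. In liver small RNA the share of all genes called in either direction was 0.0545% in pull-down and 0.111% in input. In VsWAT small RNA it was 0.103% in pull-down and 0.213% in input, and in VsWAT total RNA 0.194%. In GAS small RNA it was 0.718% in pull-down and 0.276% in input, and in plasma 0% in both.

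The closest to a call among these were Hbb-bt and Hbb-bs in GAS pull-down, the tissue whose total RNA gave a call. Hbb-bt had 12.2, 11.1 and 10.5 CPM in HFD pull-downs, against 25.5, 23.8 and 39.6 CPM in LFD pull-downs. The groups did not overlap. The difference was −1.34 ± 0.33 (adjusted p = 0.1), and it was called with a dispersion from all 4 GAS groups (adjusted p = 0.0264) and with no filter on low counts (adjusted p = 0.0314). Hbb-bs was at −0.84 ± 0.27 (adjusted p = 0.259). In VsWAT total RNA, Hba-a1 had 94.4, 88.8 and 87.9 CPM in HFD libraries, against 199, 100 and 118 CPM in LFD libraries, at −0.84 ± 0.32 (adjusted p = 0.356). Plasma inputs of Hba-a1 were 6181 and 5747 CPM in HFD, against 3448 and 2893 CPM in LFD, at 1.06 ± 1.03 (adjusted p = 0.999, 95% interval −0.95 to 3.07).

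**Figure D4:**
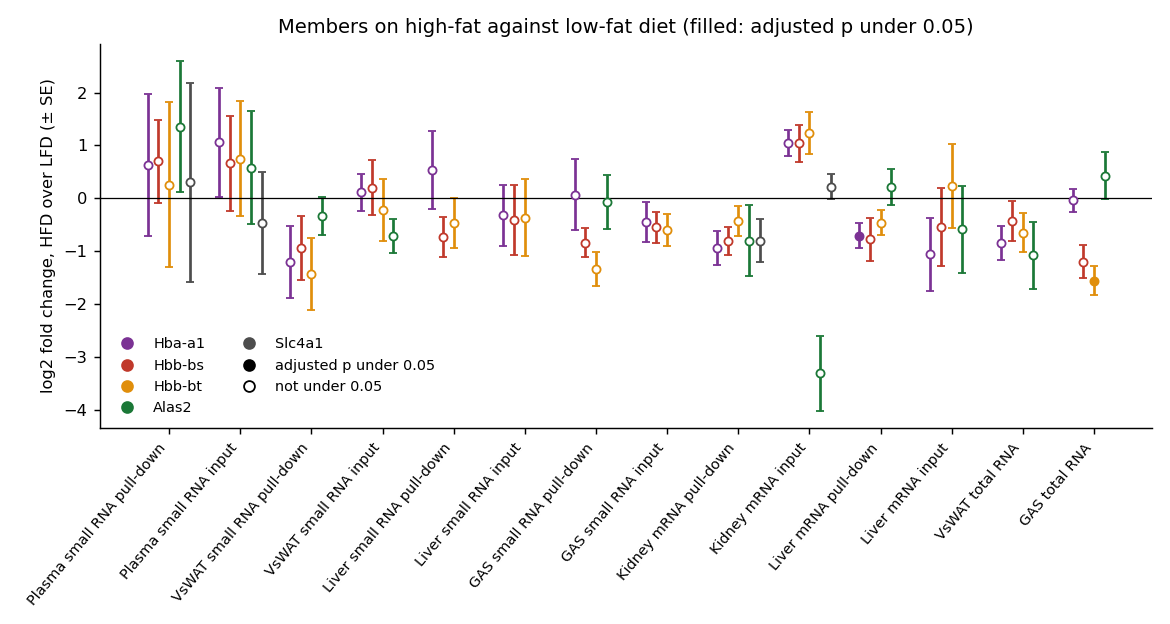
Log2 fold change of HFD over LFD for each tested member in the 14 comparisons, with standard errors, calls marked. The 2 calls, Hba-a1 in liver mRNA pull-down and Hbb-bt in GAS total RNA, lie below 0, and kidney input has its 3 globins above 0 and Alas2 below.

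Whether the pull-down difference itself changed with diet was tested as an interaction. None of 25 member tests was called, with 5 at an unadjusted p under 0.05, all in kidney, and 2 called by DESeq2. For these 2 counts too, the shares of all genes were not compared. In kidney the interaction was −2.02 ± 0.49 for Hba-a1 and −1.89 ± 0.49 for Hbb-bs (adjusted p = 0.263 each), where 0% of all genes were called. Without kidney input HFD 1 these were −2.16 and −2.13, and 3 members were called. In liver mRNA, where 3.36% of all genes were called in either direction, 0 of 4 members were, Hba-a1 standing at 0.39 ± 0.92. Without liver input LFD 1, Hba-a1 was at −1.11 (adjusted p = 0.00569) and all 4 members were called. The LFD inputs are then LFD 2 and LFD 3, which differ from each other by little more than counting noise. The share of all genes called was not compared for either reduced fit. The interaction called 0% of genes in liver, VsWAT and GAS small RNA and in plasma.

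Alas2 and the globins were ordered differently over the mRNA inputs of liver and kidney. In liver mRNA inputs, LFD 1 had the most globin, 1733 CPM, and the least Alas2, 0.989 CPM or 3 counts, whereas LFD 2 and LFD 3 had 307 and 331 CPM of globin with 27.3 and 30.7 CPM of Alas2. In kidney inputs, HFD 2 and HFD 3 had 1781 and 1737 CPM of globin with 0.217 and 0.204 CPM of Alas2, and LFD 2 had 675 CPM with 6.51 CPM. In liver the library with the most globin, and in kidney the pair with the most, had the least Alas2. Over all 77 libraries, the deviation of log2 CPM from the group mean had a Pearson correlation with that of the summed globins of 0.99 for Hbb-bs, 0.871 for Hbb-bt and 0.83 for Hba-a1, which are part of that sum, and of −0.065 for Alas2 and 0.21 for Slc4a1. The points share each library's scaling, and no test was made on the correlations.

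**Figure D5:**
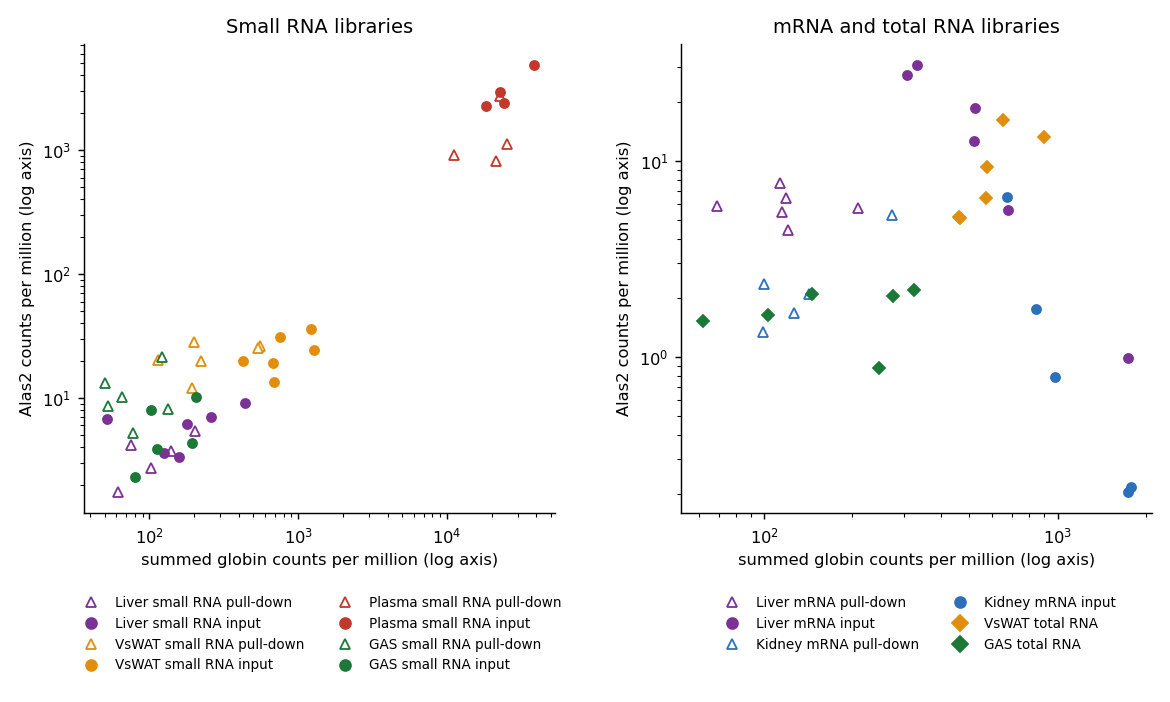
Alas2 CPM against the summed globin CPM in each library on log axes, by tissue. The plasma libraries lie at the upper right, and in liver and kidney mRNA inputs the libraries highest in globin are the lowest in Alas2.

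The 66 other erythroid genes examined, in 6 lists chosen from general knowledge, were mostly higher in plasma where they could be measured. Against VsWAT, 33 of 39 measured were higher in plasma inputs and 2 lower, with a median of 3.88 against −0.52 for all genes. Against liver the counts were 30 higher and 4 lower of 39 with a median of 4.25, and against GAS 31 and 2 of 39 with a median of 3.34. Bpgm, which makes 2,3-bisphosphoglycerate in red cells, averaged 523 CPM in plasma inputs and 8.70 CPM in VsWAT inputs (7.67 ± 0.40). Platelet genes moved with them: 9 of 10, 9 of 10 and 10 of 10 measured were higher in plasma than in VsWAT, liver and GAS. Of all genes tested, 11.7%, 21.4% and 11.0% were called higher in plasma, in the same order.

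Between pull-down and input the other erythroid genes were mixed. In liver mRNA 8 of 31 were higher and 18 lower (median −0.75 against 0.02 for all genes), and in kidney 4 of 36 and 16 (−0.63 against 0.01). In liver small RNA 6 of 26 were higher and 11 lower, in VsWAT 6 of 30 and 8, in GAS 6 of 27 and 6, and in plasma none of 27 passed in either direction, at a median of −2.42 against 0.04. Of all genes tested, 37.7% were called higher and 35.9% lower in liver mRNA, and 26.6% and 26.3% in kidney. In small RNA the shares were 26.9% and 28.2% in liver, 20.9% and 22.9% in VsWAT, 27.9% and 26.4% in GAS, and 0.317% and 0.634% in plasma. The VsWAT and GAS counts thus lay near the shares of all genes. Heme synthesis genes that hepatocytes also use did not move as one: Alas1, the ubiquitous 5-aminolevulinate synthase, was higher in liver mRNA pull-down by 1.15 ± 0.07 (3428 CPM in pull-down and 1394 CPM in input), while Fech, which inserts iron into the heme ring, was lower by −1.21 ± 0.07 (114 CPM and 223 CPM). The antioxidant enzyme Prdx2, abundant in red cells and made elsewhere too, was lower by −1.81 ± 0.12. Aqp1, the water channel of red cells and of endothelium, was lower by −1.94 ± 0.18.

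The microRNA genes Mir144 and Mir451a, which erythroid cells transcribe together from 1 locus on chromosome 11, gave few counts outside plasma and VsWAT. Their mature sequences are shown because a small RNA library could hold the mature form, with the seed (bases 2 to 8) in capitals, from RefSeq on GRCm38.p6, at 11:78073010-78073032, 11:78073047-78073066 and 11:78073186-78073207 on the + strand.
miR-144-5p: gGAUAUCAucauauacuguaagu
miR-144-3p: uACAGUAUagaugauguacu
miR-451a: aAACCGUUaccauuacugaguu

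No 2 of the 3 share a seed. Mir144 had 190 and 273 counts in HFD and 114 and 99 counts in LFD plasma pull-downs, against 7 and 2 counts in HFD and 7 and 10 counts in LFD plasma inputs. These are 294, 824, 492 and 446 CPM in pull-downs and 21.4, 2.42, 13.9 and 18.0 CPM in inputs, with no overlap. The difference was 3.35 ± 1.16 and did not pass over all genes (adjusted p = 0.166). Mir144 was singled out after its values were seen. Which part of the Mir144 hairpin the reads cover was not examined, since the files give counts per gene. Mir451a had 0 counts in the 8 plasma libraries, which allows up to 2.10 CPM over the pull-downs and up to 1.36 CPM over the inputs, for counting error only. Its 64 counts in all were 61 in VsWAT and 3 in GAS total RNA. The gene Mir451b lies on the opposite strand of the same interval, and reads from the 2 strands cannot be told apart where counting did not use strand.

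The genes whose levels most resembled the summed globins were ranked by Pearson correlation of log2 CPM over the 28 group means, among 14213 genes. Among the 10 leading ones were Tent5c (0.894), Gtf2i (0.847) and Ppbp (0.844), followed by Slc25a37, Nrgn, Mir106b, Rnf10 and Ano4 (0.843 to 0.834). For some of them this likeness rests on plasma: without the 4 plasma groups the values were 0.35 for Tent5c, 0.098 for Slc25a37 and −0.007 for Mir106b. The other members stood at 0.965 for Hbb-bt and 0.962 for Hba-a1 (0.958 and 0.924 without plasma), 0.89 for Slc4a1 (0.458) and 0.867 for Alas2 (0.195). Within groups, over 77 deviations from the group mean, the 10 most alike included Rps28 (0.654), Rps27, 1810022K09Rik, Uqcrh, Rpl37, Cox7a2, Pet100, Mif and Atp5j2 (0.571). Group means share library type and depth, and the deviations share the scaling of each library.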

How the data were processed

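The authors deposited one gene count table per library: whole-number counts of reads per Ensembl gene, raw and not normalized. Reads were single-end, 75 bp long, from a CATS small RNA library kit per the labels' protocols, and were processed with STAR and HTSeq against mm10 per the submitters' processing notes; versions, the strand setting and the treatment of reads that match several genes are not given in the sources used here. The 5 summary lines at the end of the 12 total RNA tables stayed out of library sizes and tests, and 55450 identifiers were paired with a symbol.

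CPM is a gene's count per 1000000 assigned counts. Tests used edgeR 4.0.16 (R 4.3.3, limma 3.58.1): TMM scaling, genes kept by filterByExpr with a minimum count of 10, robust quasi-likelihood fits over all genes, Benjamini-Hochberg adjustment over all genes tested and a threshold of 0.05, in 34 comparisons. Pull-down against input was fitted with diet as a term in each material, diet within each fraction, their interaction, and tissue against tissue within an RNA type with diet as a term. DESeq2 1.42.0 was an alternative, with total-count scaling, DESeq2-type size factors, no low-count filter, a shared dispersion, a replicate block and each library left out in turn. The fits were tested on simulated data with a fixed dispersion not taken from these libraries. Of 2-fold changes, 84% were recovered for VsWAT small RNA pull-down, 59% for plasma pull-down and 51% for diet in liver mRNA input. Of 4-fold changes, 100%, 99% and 99% were recovered, in the same order. Intervals are 95% and cover the fit's error, and limits from 0 counts use 3 counts and cover counting error only.

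Libraries of a group were compared by chi-square per degree of freedom: the closest pairs, at 1.12 (liver mRNA input LFD 2 and 3), 1.17 (liver mRNA input HFD 1 and 3) and 1.44 (VsWAT small RNA input HFD 1 and 2), still differed by more than counting noise and were kept as separate libraries, and summing each pair changed no member's call. Same-numbered libraries deviated together in liver mRNA pull-down HFD with LFD (correlations 0.156 to 0.171) and, in GAS small RNA, between the input and pull-down libraries (0.186 to 0.506), where every pair was over 0.1. In VsWAT small RNA the input and pull-down pairs were over 0.1 in LFD (0.288 to 0.354) but not all in HFD (0.064 to 0.279), and kidney inputs HFD with LFD (0.346 and 0.425) gave only 2 pairs, as did other sets. These numbers come from the sample titles. The members and the gene lists were chosen with earlier results of these data known. List genes were named by smallest adjusted p among calls whose mean count was 10 or more, and likeness was ranked where the mean count was 5 or more, as correlation with log2 of summed globin CPM plus a pseudocount of 1. Some genes that these rules name are not reported here.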

Additional observations from a re-analysis of the deposited data

Results flagged for a closer look

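Per 100 Hbb-bs counts, Hba-a1 was higher in pull-down than in input by 28.3 in kidney mRNA and differed by −16.3 in plasma small RNA. In kidney every pull-down library lay above every input, and in plasma every pull-down lay below every input. The difference between kidney and plasma was not tested, and the RNA type differs between them too, so tissue and RNA type cannot be told apart. In liver, which has both RNA types, this ratio overlapped between pull-down and input in each. Its means there were 34.0 against 30.4 in mRNA and 29.2 against 34.5 in small RNA.

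Alas2 per 100 Hbb-bs counts showed the same opposite directions, with pull-down minus input at 2.54 in kidney mRNA and −7.11 in plasma small RNA. This difference was not tested either, and it shares its denominator with the one above.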

How the results depend on the processing

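Plasma over tissue kept its 5 called members in each of its fits, and with no filter on low counts Hba-a2 (7 counts in plasma inputs, 0 in VsWAT, liver and GAS small RNA inputs) was tested and called as a sixth, and pull-down in kidney mRNA kept 4 called lower. Total-count scaling, with or without the 6 genes in the totals, left 1 called in liver small RNA pull-down, 0 in plasma pull-down, 0 for diet in liver mRNA pull-down and 2 for diet in GAS total RNA. DESeq2 called 2 in liver mRNA pull-down, 0 for diet in liver mRNA pull-down, 1 for diet in kidney input, 2 for the kidney interaction, 2 for diet in GAS total RNA and 2 for VsWAT against liver. DESeq2-type size factors left 1 in plasma pull-down and 2 for VsWAT against liver. With no filter on low counts, 3 were called for the kidney interaction, 4 for diet in kidney input, 1 in liver small RNA pull-down (Alas2, while the 3 globin calls were lost), 1 for diet in GAS small RNA pull-down, 2 for diet in VsWAT total RNA and 3 for liver against GAS, and Alas2 was not called in liver mRNA pull-down (−1.62, adjusted p = 0.0652). A dispersion from all 4 groups gave 0 for diet in liver mRNA pull-down and 1 in GAS small RNA pull-down. The last 2 were chosen after seeing the data: without kidney inputs of over 15% mitochondrial mRNA, 4 were called for the kidney interaction and 4 for diet in kidney input, and without total RNA libraries of over 3% Gm42418, 0 were called for diet in GAS total RNA. The share of all genes called was not compared for these other fits or those below. Their member calls therefore cannot be set against the shares of the main fits. The causes were not tested.

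Leaving out 1 library at a time gave 0 to 4 called members for the liver mRNA interaction, 0 to 3 for diet in liver mRNA input, 0 to 1 in liver mRNA pull-down and 0 to 3 for the kidney interaction. It gave 0 to 4 for diet in kidney input, 0 to 2 in kidney pull-down, 0 to 2 in VsWAT small RNA pull-down, 0 to 1 for VsWAT total RNA, and 0 throughout for GAS total RNA. Plasma pull-down against input gave 0 to 3, VsWAT against liver 1 to 4, liver against GAS 0 to 2 and kidney against liver 2 to 5. Over these fits Hba-a1 ran from −1.11 to 0.74 in the liver mRNA interaction, from −1.44 to 0.34 for diet in liver mRNA input and from −0.21 to 0.71 in kidney against liver, and Hbb-bs from −0.95 to 1.00 for diet in liver mRNA input. The end with the opposite sign is each time the fit without liver mRNA input LFD 1.

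With the replicate block, 145 member results kept their direction and side of the threshold, and Hbb-bs in plasma pull-down became called (−2.17 ± 0.54, adjusted p = 0.00869), making 3 called members there. The plasma inputs' numbers ran against each other between HFD and LFD (−0.526), and the crossed pairing left 0 called members for diet there.

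Leaving tRNA, Gm42418 and mitochondrial genes out of the denominator moved mean globin CPM by more than the spread of libraries in 15 groups. In pull-downs it came to 142 in kidney mRNA HFD, 296 in VsWAT small RNA HFD, 105 and 213 in GAS small RNA HFD and LFD and 28121 in plasma HFD. In inputs it came to 908 in kidney mRNA LFD, 1370 and 1221 in VsWAT small RNA HFD and LFD, 203 and 302 in GAS small RNA HFD and LFD and 23985 in plasma LFD. In total RNA it came to 1119 and 1502 in VsWAT and 197 and 519 in GAS, HFD and LFD. Ranking by Spearman kept 4 of the 10 genes most like the globins over group means and 5 of 10 over deviations. Counts were low for Hba-a2, Slc4a1 and Alas2: Hba-a2 had at most 5 counts in any library, Slc4a1 had at most 9 counts in any tissue small RNA library, and Alas2 at most 14 in any liver small RNA library.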
